A study of Rattus norvegicus with 14 samples.

Results

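The comparison described here asked which transcripts of blood mononuclear cells differed between healthy rats after 34 days of needle stimulation and healthy rats before any therapy. It rests on 6 of the 14 arrays of the second experiment of the study, chosen by their labels: 3 arrays of untreated healthy female Wistar rats (NOCIA_B, called NORA in the labels, day 0) and 3 arrays of healthy female Wistar rats given mechanical stimulation (NOCIAMS_A, called HAP in the labels, with acupuncture as the therapy, day 34). They are called the baseline and the stimulated arrays below. The names were matched to the codes here, by health, therapy and day. Stimulation meant that a short steel needle was set on both sides of the lower back and below the knee and twirled at the start of each session. All rats were shaved, blood was drawn under deep anaesthesia, and the rats were killed at sampling. No healthy rat without stimulation was sampled at day 34 on these arrays, so stimulation cannot be told apart from 34 days of age and housing. The labels number the replicates without saying which animal gave each array. The p-values measure only the spread between arrays within groups, pooled over all 14 arrays.

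Peripheral blood mononuclear cells are the lymphocytes and monocytes that stay at the top of a density gradient, while most neutrophils and red cells pass through it. Platelets, young red cells and low-density granulocytes can be carried along, and their RNA is then measured together with that of the mononuclear cells. Needle stimulation deforms skin and connective tissue, and injury of such tissue is known to engage platelets, neutrophils and monocytes, with cytokine, immediate early and adhesion genes as familiar readouts in blood cells. In RNA from a mixture, fewer cells of a type and less RNA per cell cannot be told apart.

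Before any comparison, the arrays were checked. The T cell gene Cd3e lay at or above the 82.9th percentile of the signals of every array and the monocyte gene Cd14 at or above the 90.4th, while the NK cell gene Ncr1 lay between the 54.2nd and the 80.8th. The annotation gives the B cell gene Cd79a no probe set of its own, and Cd79b was read instead. The platelet chemokine gene Pf4 and the haemoglobin gene Hbb were at or above the 99.7th percentile on every array, so the RNA was not that of mononuclear cells alone. Baseline replicate 3 stood apart from the rest: its mean correlation with the other arrays was 0.860, against 0.896 to 0.909 for the other 5, and its hybridization controls stood at 1.78 times those of the median array. The ratio of 3′ to 5′ signal of actin, a measure of RNA length, was 1.97 to 3.01 on the baseline arrays and 3.35 to 4.36 on the stimulated arrays. The same ratio of GAPDH was 0.949 to 1.16 on the baseline arrays and 1.03 to 1.13 on the stimulated arrays, without such a gap. The part of the actin gap in the results below was not tested. Baseline arrays also varied more, with a median SD of 0.46 on the log2 scale per probe set, against 0.25 for the stimulated arrays. Weights fitted per array, larger for arrays closer to their group, were 0.32, 2.82 and 0.29 on baseline replicates 1, 2 and 3. On the stimulated arrays they were 1.14 to 1.64.

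No probe set passed an adjusted p of 0.05 (0 of 18515, 0%, limma with Benjamini-Hochberg, lowest adjusted p 0.434), and 1144 (6.18%) had an unadjusted p under 0.05. At the thresholds of the study for p and fold, without its filters on detection calls, 192 probe sets (1.04%) were higher in the stimulated rats. Lower were 234 (1.26%). With each array centred on its median the counts were 149 higher and 284 lower. Reduced to 1 probe set per gene, 81 of 10107 genes (0.801%) were higher and 113 (1.12%) lower at these thresholds. The groups did not overlap for 733 genes that were higher (7.25%) and 257 that were lower (2.54%). The change was above 0 for 61.8% of all genes, with a median of 0.10, and the lists below are set beside these values. The fold threshold parted close neighbours: Plod2, an enzyme of collagen cross-linking, stood just inside it at a change of -1.002, and Bnip3, a mitochondrial protein of the hypoxia response, just outside at -0.997.

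The baseline array with the lowest value differed by direction. A low baseline value makes the change smaller for a lower gene and larger for a higher gene. Of the 113 lower genes, 86 had their lowest baseline value on replicate 1. Of the 81 higher genes, 48 had their lowest baseline value on replicate 3, the array that stood apart. Without baseline replicate 3 the counts of probe sets were 188 higher and 99 lower, without replicate 1 they were 631 higher and 877 lower, and without replicate 2 they were 369 higher and 202 lower.

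The brighter genes that met the thresholds of the study without overlap of the groups were 12 higher and 7 lower. None passed the adjustment: the adjusted p of 85 genes, these 19 and the others given with a change below, lay between 0.545 and 0.930 (limma, Benjamini-Hochberg), and a gene at the thresholds of the study has an unadjusted limma p under 0.05. Changes are log2 differences of the stimulated minus the baseline mean, n = 3 arrays each, with their standard error from the fit to all 14 arrays. Levels are log2 signals of the probe set in the order of replicates 1, 2 and 3.

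**Figure D1:**
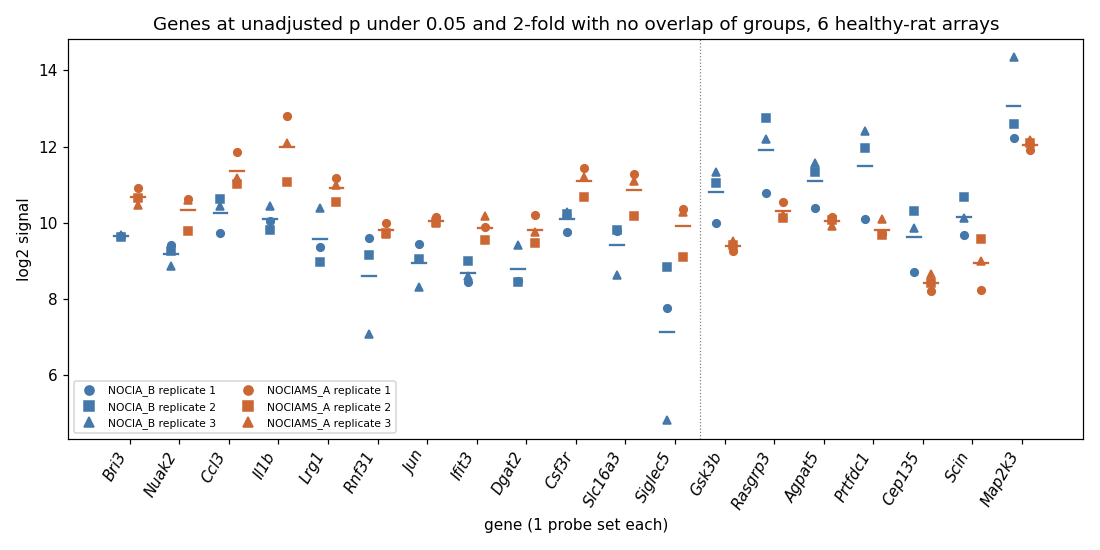
Log2 signal (vertical axis) of the 19 genes (horizontal axis) on each healthy-rat array, blue for NOCIA_B, orange for NOCIAMS_A, 1 symbol shape per replicate, horizontal bars for group means, and a dotted line between the 12 higher and the 7 lower genes. For Bri3 the 3 baseline arrays coincide near 9.65, and for Siglec5 replicate 3 of NOCIA_B lies far below the other arrays.

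Several of the 12 higher genes are known from myeloid cells. Il1b, which encodes the cytokine interleukin 1 beta, was at 10.04, 9.81 and 10.43 on the baseline arrays and at 12.79, 11.06 and 12.08 on the stimulated arrays. Every stimulated array was above every baseline array, and stimulated replicates 1 and 3 were the farthest away. The change was 1.89 ± 0.62 (3.70-fold). Ccl3, which encodes a chemokine of macrophages, was at 9.74, 10.62 and 10.44 before and at 11.85, 11.02 and 11.18 after. Its groups also stayed apart, although baseline replicate 2 and stimulated replicate 2 lay close together, and the change was 1.09 ± 0.30 (2.12-fold). Of 17 measured inflammatory cytokine and chemokine genes, 14 were above 0, with a median of 0.58, and 0.33 without stimulated replicate 3 and 0.37 without stimulated replicate 1. The level of the list was -0.38, -0.44 and -0.32 on the baseline arrays and 0.43, -0.74 and 0.79 on the stimulated arrays, so stimulated replicate 2 was the lowest of the 6.

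Csf3r, the receptor of granulocyte colony-stimulating factor, was at 9.75, 10.23 and 10.29 before and at 11.43, 10.67 and 11.21 after. The change was 1.01 ± 0.46. Lrg1, a leucine-rich glycoprotein made by neutrophils and liver, was at 9.37, 8.98 and 10.39 before and at 11.18, 10.53 and 11.002 after. Here the highest baseline array, replicate 3, nearly reached the lowest stimulated one, and the change was 1.32 ± 0.49. Siglec5, an inhibitory sialic acid receptor of myeloid cells, was at 7.76, 8.85 and 4.81 before and at 10.36, 9.11 and 10.28 after. Its change of 2.78 ± 1.26 was the largest of the 19 genes, and it was 1.44 without baseline replicate 3, whose value was the lowest by far.

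Across the alternatives run, the change of Il1b ran from 1.48 to 2.34, and its adjusted p from 0.0963 to 0.999 (limma). S100a11, a calcium-binding protein of the S100 family and a member of the study's early healing list, was at 11.61, 11.22 and 11.67 before and at 12.67, 12.19 and 12.38 after, a change of 0.91 ± 0.27. The calprotectin subunits S100a8 and S100a9, which the study also measured as protein in serum, were the brightest of the neutrophil markers. For S100a9 the levels were 13.87, 13.01 and 14.37 before and 14.96, 14.35 and 14.61 after. Its groups overlapped by a narrow margin, because baseline replicate 3 was above stimulated replicate 2, and the change was 0.89 ± 0.44. S100a8 differed by 0.73 ± 0.60. A further list held genes that the study followed as protein in serum or by PCR in cultured fibroblast-like joint cells. Cytokines that it measured by PCR in blood cells were not among the 6 measured members. All 6 were above 0, with a median of 0.50, and 5 of 6 with 0.23 without baseline replicate 3. With all probe sets of a gene averaged, 4 of 6 were above 0.

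As a whole, the neutrophil list (with Csf3r and Padi4 among them) had 12 measured members, of which 9 were above 0. The median change was 0.90 beside 0.10 for all genes, and 0.52 without baseline replicate 2. The lowest member was at -1.59. The groups did not overlap for 4 higher members and 1 lower member, beside 7.25% and 2.54% of all genes. With only probe sets above the median on 3 of the 6 arrays kept, 7 members were left. Of these, 6 were above 0, with a median of 0.89. Padi4, the enzyme that citrullinates histones in neutrophils, differed by 1.07 ± 0.46 at a low level. Mmp8, the neutrophil collagenase, lay between the 30.1st and the 56.7th percentile of the arrays. The 12 members' summed signal ran from 16635 to 34915 on the baseline arrays and from 34549 to 54439 on the stimulated arrays. The brightest members weigh most in such a sum. The level of the list, in which members weigh the same, was -0.12, -0.97 and 0.23 on the baseline arrays. On the stimulated arrays it was 0.30, 0.01 and 0.34, so the groups overlapped.

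All 15 measured monocyte markers were above 0, with a median of 0.40, and none passed the adjustment. One of them, Ms4a7, a membrane protein of macrophages, differed by 1.60 ± 0.69. Aif1, an actin-binding protein of monocytes, was at 9.78, 10.96 and 10.07 before and at 11.74, 10.68 and 11.45 after. Stimulated replicate 2 fell among the baseline values, and the change was 1.02 ± 0.50. Cd68, a lysosomal glycoprotein of phagocytes, differed by 0.81 ± 0.45. The mean level of the list, in log2 units around each gene's mean over the 14 arrays, was -0.84, 0.06 and -0.25 on the baseline arrays and 0.36, -0.23 and 0.60 on the stimulated arrays. The groups overlapped, with the lowest level on baseline replicate 1. Without that array the median was 0.22 and 9 of 15 members were above 0, and without baseline replicate 2 it was 0.83 with 13 above 0.

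**Figure D2:**
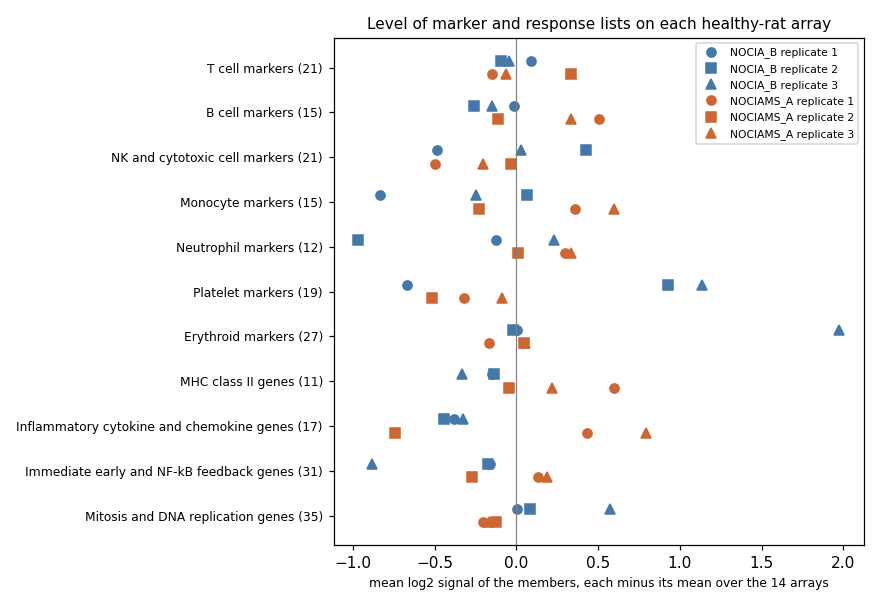
Mean log2 signal of the measured members of each list (number in brackets), each member taken relative to its mean over the 14 arrays (horizontal axis), for the 3 NOCIA_B (blue) and the 3 NOCIAMS_A (orange) arrays, 1 symbol shape per replicate. Replicates 2 and 3 of NOCIA_B lie far to the right for platelet markers and replicate 3 alone for erythroid markers, at 1.98.

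The antigen presentation genes differed by less, with narrower spread. Class II molecules of the major histocompatibility complex show peptides to helper T cells and are carried by B cells, monocytes and dendritic cells. All 11 measured class II genes were above 0, with a median of 0.42, and 3 of them did not overlap between the groups. Ifi30, a lysosomal thiol reductase that prepares antigens, was at 12.18, 12.39 and 11.91 before and at 12.87, 12.68 and 12.96 after. The change was 0.67 ± 0.21 (1.60-fold). RT1-DMb and RT1-DMa, the chains of the peptide exchange factor DM, differed by 0.55 ± 0.23 and 0.63 ± 0.26. Cd74, the invariant chain and the brightest member, differed by 0.42 ± 0.29. The number above 0 was 9 of 11 without baseline replicate 1, with a median of 0.57, and the median was 0.29 without stimulated replicate 1 and 0.65 without stimulated replicate 2.

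B cell markers stood beside them: 13 of 15 were above 0, with a median of 0.40. Cd37, a tetraspanin of mature B cells, was at 9.47, 9.32 and 9.90 before and at 10.15, 10.07 and 10.16 after. The stimulated arrays lay close together above all baseline arrays, and the change was 0.56 ± 0.21. Cd79b, a signalling chain of the B cell receptor, differed by 0.80 ± 0.45, and Ebf1, a transcription factor of the B lineage, by 1.05 ± 0.51. The median of the list was 0.25 without stimulated replicate 1.

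Immediate early genes are transcribed within minutes of a stimulus and are followed by inhibitors that NF-kB switches on, and Jun was the member with the lowest p. Jun, a subunit of the AP-1 transcription factor, was at 9.45, 9.05 and 8.32 before and at 10.14, 10.03 and 9.999 after. The stimulated values were nearly equal while the baseline values spread, and the change was 1.12 ± 0.45 (2.17-fold), with 0.62 and 0.67 for its other 2 probe sets. Tnfaip3, which encodes A20, an enzyme that shuts off NF-kB signalling, was at 13.92, 13.86 and 13.94 before and at 14.35, 14.39 and 14.31 after. Both groups were tight, with a clear gap between them, and the change was 0.45 ± 0.18 (1.36-fold). Dusp5, a phosphatase of the kinase ERK, was at 10.77, 11.15 and 10.85 before and at 11.75, 11.16 and 11.63 after. The lowest stimulated array exceeded the highest baseline array by a hair, and the change was 0.59 ± 0.25.

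Of the 31 measured genes of that list, 27 were above 0, with a median of 0.33, and 4 did not overlap. Fos, the partner of Jun in AP-1, was at 11.67, 12.32 and 11.25 before and at 11.79, 11.90 and 12.33 after, with overlapping groups and a change of 0.26 ± 0.57. Without baseline replicate 3 the list had 21 members above 0 and a median of 0.18, and without replicate 2 it had 27 and 0.59. Rnf31, a ligase of linear ubiquitin chains in the NF-kB pathway, differed by 1.21 ± 0.49 with baseline values of 9.59, 9.14 and 7.09 and stimulated values of 9.99, 9.74 and 9.70. Most of that distance came from the low baseline replicate 3.

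The promoters shown were chosen by hand, together with the motifs marked in them. Tnfaip3 and Dusp5 stood higher without overlap. Rgs18 and Epor, described further on, stood lower, and the groups of Rgs18 overlapped. None of these genes is among the 12 higher or 7 lower genes, so their matches give no share for such genes. Each window holds the 250 bases before the gene's start, 5′ to 3′ on the gene's strand, from the RefSeq promoter table for GRCr8. Tnfaip3 lies on the minus strand with its window at chr1:15543980-15544229, and Dusp5 on the plus strand at chr1:262543524-262543773. Rgs18 lies on the minus strand at chr13:59066343-59066592 and Epor on the minus strand at chr8:28770323-28770572. Capitals mark matches, on either strand, to GGAAANNCC (an NF-kB type motif) and TGACTCA (AP-1) in the first pair and to AGATAA (read by GATA factors) in the second pair.
Tnfaip3: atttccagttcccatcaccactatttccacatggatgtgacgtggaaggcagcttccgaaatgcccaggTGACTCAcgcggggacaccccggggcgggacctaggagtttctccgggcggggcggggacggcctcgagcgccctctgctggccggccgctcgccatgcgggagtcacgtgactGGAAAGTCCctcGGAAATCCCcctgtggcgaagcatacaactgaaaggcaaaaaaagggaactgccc
Dusp5: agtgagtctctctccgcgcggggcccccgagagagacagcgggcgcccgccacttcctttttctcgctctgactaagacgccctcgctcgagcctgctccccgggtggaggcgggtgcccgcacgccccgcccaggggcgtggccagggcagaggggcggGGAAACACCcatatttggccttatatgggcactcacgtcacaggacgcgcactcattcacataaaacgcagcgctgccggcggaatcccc
Rgs18: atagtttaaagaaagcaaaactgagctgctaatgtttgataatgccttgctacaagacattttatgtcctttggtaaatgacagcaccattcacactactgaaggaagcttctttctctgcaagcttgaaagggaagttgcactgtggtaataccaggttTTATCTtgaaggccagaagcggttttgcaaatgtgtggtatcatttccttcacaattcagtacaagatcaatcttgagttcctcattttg
Epor: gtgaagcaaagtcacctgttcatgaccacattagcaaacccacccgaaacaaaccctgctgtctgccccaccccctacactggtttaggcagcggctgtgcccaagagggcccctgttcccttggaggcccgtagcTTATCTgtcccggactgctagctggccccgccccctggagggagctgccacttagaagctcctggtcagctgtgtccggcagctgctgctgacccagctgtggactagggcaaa
The window of Tnfaip3 holds 2 matches to the NF-kB motif, which begin 67 and 55 bases before the start and do not overlap, and 1 to the AP-1 motif at 181 bases. Dusp5 holds 1 match to the NF-kB motif at 90 bases, and Rgs18 and Epor hold 1 match each to the GATA motif at 90 and 114 bases. Over all 33469 promoters of the table, 5.19% hold the NF-kB motif, 4.05% the AP-1 motif and 10.3% the GATA motif in the same window. Of the 12 higher genes, 9 are in the table, of which 2 hold the NF-kB motif (Ifit3 and Lrg1), 2 the AP-1 motif (Ifit3 and Slc16a3) and 0 the GATA motif. Of the 7 lower genes, 5 are in the table, and Scin alone holds a match, to the NF-kB motif. Such matches describe letters only.

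The other higher genes had diverse roles. Bri3, a small membrane protein of lysosomes, was at 9.66, 9.62 and 9.68 before and at 10.91, 10.65 and 10.47 after. It had the tightest baseline of the named genes and the lowest p of the higher ones, with a change of 1.03 ± 0.18 (2.04-fold, adjusted p = 0.555 by limma), and across the alternatives the change ran from 0.91 to 1.13. Nuak2, a kinase related to AMPK, was at 9.42, 9.25 and 8.88 before and at 10.64, 9.79 and 10.61 after, a change of 1.16 ± 0.30. Ifit3, an interferon-induced antiviral protein, was at 8.45, 9.01 and 8.61 before and at 9.88, 9.55 and 10.16 after, a change of 1.17 ± 0.48. All 3 genes kept their groups apart.

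Slc16a3, the lactate exporter of glycolytic cells, differed by 1.44 ± 0.65, from 9.78, 9.80 and 8.64 to 11.28, 10.18 and 11.09. Dgat2, an enzyme of triglyceride synthesis, differed by 1.03 ± 0.44, from 8.46, 8.44 and 9.42 to 10.19, 9.48 and 9.75. In both, 1 baseline array, replicate 3, lay away from the other pair, on the low side for Slc16a3 and on the high side for Dgat2. Interferon response genes as a list had 21 of 29 members above 0, with a median of 0.30. In this list 8 members were higher without overlap, beside 7.25% of all genes. The median was 0.17 without stimulated replicate 3 and 0.19 without baseline replicate 1. Tap2, a peptide transporter of antigen presentation, differed by 0.34 ± 0.15.

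Per1, a repressor of the circadian clock, was at 12.86, 12.22 and 11.05 before and at 12.94, 13.17 and 12.88 after. Baseline replicate 1 lay just under the stimulated arrays and replicate 3 far under, and the change was 0.96 ± 0.41. Of 17 measured clock genes, 12 were above 0, with a median of 0.28, and 0.49, 0.45 and 0.01 without baseline replicates 1, 2 and 3. Clock, which activates the Per genes, differed by 0.41 ± 0.27 and Nr1d2, a nuclear receptor of the clock, by 0.47 ± 0.40. Gata2, a transcription factor of basophils, mast cells and blood progenitors, was at 4.26, 5.25 and 3.45 before and at 7.11, 5.79 and 5.85 after. The change was 1.93 ± 0.58, but the baseline values and 2 stimulated values lay under the array medians, which were between 6.79 and 7.22. The basophil, mast cell and eosinophil list had 11 of 15 members above 0 and a median of 0.83, which was 0.36 without stimulated replicate 1 and 1.39 without stimulated replicate 2.

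Acvr1, a receptor of activins and bone morphogenetic proteins, was at 5.56, 6.25 and 3.50 before and at 7.38, 7.25 and 8.46 after. The groups were apart, with the baseline under the array medians, and the change was 2.59 ± 0.61 (6.03-fold). It belongs to the TGF-beta and Smad list, of which 15 of 22 members were above 0, with a median of 0.19, and 0.42 without baseline replicate 1, 0.31 without baseline replicate 2 and 0.32 without stimulated replicate 3. Kat2a, a histone acetyltransferase in the study's EMT list, was at 7.73, 7.95 and 7.16 before and at 8.66, 8.41 and 8.51 after, a change of 0.92 ± 0.23.

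The 7 lower genes follow. Gsk3b, the kinase that restrains beta-catenin and glycogen synthesis, was at 10.001, 11.05 and 11.34 before and at 9.25, 9.41 and 9.51 after. All stimulated arrays were below all baseline arrays, and baseline replicate 1 was the nearest. The change was -1.41 ± 0.32 (2.65-fold lower), and -1.13 to -1.80 across the alternatives. Rasgrp3, an exchange factor for Ras and Rap GTPases, was at 10.79, 12.74 and 12.20 before and at 10.55, 10.13 and 10.21 after. Baseline replicate 1 lay only slightly above the stimulated arrays, while replicates 2 and 3 lay far above, and the change was -1.61 ± 0.46.

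Prtfdc1, a relative of the purine salvage enzyme HPRT, was at 10.09, 11.97 and 12.42 before and at 9.70, 9.67 and 10.09 after, a change of -1.67 ± 0.52. Agpat5, an enzyme of phosphatidic acid synthesis, was at 10.39, 11.33 and 11.57 before and at 10.16, 10.07 and 9.90 after, a change of -1.05 ± 0.30, with -1.26 for its other probe set. Both had the same order over the baseline arrays, with replicate 1 lowest. Cep135, a centriole protein, differed by -1.21 ± 0.39, and Scin, an actin-severing protein, by -1.22 ± 0.45. For Map2k3, a kinase that activates p38, the levels were 12.23, 12.60 and 14.35 before and 11.90, 12.09 and 12.17 after, so its change of -1.01 ± 0.46 came mainly from baseline replicate 3.

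Most of the platelet genes described here had that same order of baseline arrays, and Pf4 did not. Ppbp, a chemokine precursor stored in platelet granules, was at 11.13, 13.10 and 13.62 before and at 11.29, 10.69 and 11.85 after. Baseline replicate 1 sat among the stimulated arrays and replicates 2 and 3 well above them, so the groups overlapped, and the change was -1.34 ± 0.56. Rgs18, a platelet regulator of G protein signalling, was at 13.27, 14.66 and 15.21 before and at 13.12, 12.98 and 13.40 after, a change of -1.21 ± 0.47. Mmrn1, a platelet granule protein that binds factor V, differed by -1.29 ± 0.61. Pf4, at 15.69, 15.53 and 16.67 before and 15.59, 15.58 and 15.58 after, differed by -0.38 ± 0.30, close to the top of the signal range.

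Of 19 measured platelet markers, 18 were below 0 and 1, the adhesion receptor gene Selp, above, with a median of -0.81 beside 0.10 for all genes. The number below 0 was 18 with any 1 of the 6 arrays left out. The median was -1.58 without baseline replicate 1, -0.59 without replicate 2 and -0.41 without replicate 3. The level of the list was -0.67, 0.93 and 1.14 on the baseline arrays and -0.32, -0.51 and -0.09 on the stimulated arrays, so 1 baseline array lay below all stimulated arrays and the other 2 above. Its summed signal ran from 160202 to 496186 on the baseline and from 174317 to 199407 on the stimulated arrays. No defining platelet marker was near 0: Ppbp and Gp9 were at or above the 90.2nd percentile of every array. The part of platelet RNA in the lower genes whose lowest baseline array was replicate 1, such as Rasgrp3 and Prtfdc1, was not tested.

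Erythroid genes followed baseline replicate 3. Of 27 measured erythroid markers, 24 were below 0, with a median of -0.75. The level of the list was 0.00, -0.02 and 1.98 on the baseline arrays and -0.17, 0.04 and 0.05 on the stimulated arrays, so replicate 3 alone stood out. Without that array 15 of 27 were above 0 and the median was 0.08. Epor, the erythropoietin receptor, was the member with the lowest p: it was between 7.97 (replicate 1) and 9.17 (replicate 3) before and at 7.60, 7.47 and 7.68 after, a change of -1.13 ± 0.36, but its other 2 probe sets differed by -0.18 and -0.17. Rhag, a membrane protein of red cells, was at 8.18, 10.003 and 10.53 before and at 8.47, 7.89 and 8.03 after. Like Xk, another red cell membrane protein (change -1.38 ± 0.60), it was high on baseline replicates 2 and 3, as platelet genes were, and its change was -1.44 ± 0.58. The summed erythroid signal ran from 123764 to 529163 on the baseline and from 131177 to 166903 on the stimulated arrays.

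Lymphocyte lists other than B cells lay near all genes or below them. T cell markers had 12 of 21 members above 0, with a median of 0.06, and 0 members at an unadjusted limma p under 0.05. Cd3g, a chain of the T cell receptor complex and the brightest member, differed by 0.22 ± 0.23 and Cd2, an adhesion molecule of T cells, by 0.30 ± 0.21. Gata3, the transcription factor of helper T cells of the second type, was at 9.59, 10.96 and 10.63 before and at 9.88, 9.81 and 9.67 after, with baseline replicate 1 just below the stimulated values and the other 2 above them, a change of -0.61 ± 0.34. The median of the list was -0.13 without stimulated replicate 2 and 0.24 without baseline replicate 1. Plasma cell markers had 5 of 9 members above 0 and a median of 0.04, and dendritic cell markers 7 of 12 and 0.08, and with 1 of the 6 arrays left out these medians ran from -0.21 to 0.22 and from -0.11 to 0.14.

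NK and cytotoxic cell markers had 17 of 21 members below 0, with a median of -0.26. Xcl1, a chemokine of activated NK and T cells, was at 7.16, 8.67 and 8.55 before and at 5.87, 6.98 and 6.95 after. It was the member without overlap, and the change was -1.52 ± 0.95. Klrb1b, an inhibitory lectin receptor, differed by -0.57 ± 0.38, and Tyrobp, the adaptor DAP12 that monocytes share, by 0.92 ± 0.48. Without baseline replicate 2 the median was -0.04, with 12 of 21 below 0, and without baseline replicate 1 it was -0.52.

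Genes of mitosis were lower in part. Bub1b, a kinase of the spindle checkpoint, was at 7.55, 5.62 and 7.68 before and at 2.56, 3.50 and 3.81 after. The stimulated values were far under the array medians, near the floor of the measurement, and the change was -3.66 ± 0.60 (12.6-fold lower, adjusted p = 0.545 by limma). Across the alternatives it ran from -2.45, with 16 added to every signal, to -4.33, without baseline replicate 2, the setting in which Bub1b passed the adjustment (adjusted p = 0.0314, 0.0314 to 0.962 over all alternatives). Cenpf, a kinetochore protein, was at 7.16, 7.03 and 8.34 before and at 6.04, 6.30 and 5.65 after, a change of -1.51 ± 0.36. Bub1, the partner kinase of the checkpoint, differed by -0.98 ± 0.38. All 3 kept their groups apart, at levels close to the array medians or below.

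Of the 35 measured genes of mitosis and DNA replication, 24 were below 0, with a median of -0.35. In the lower direction 5 did not overlap, beside 2.54% of all genes. The level of the list was 0.01, 0.08 and 0.58 on the baseline arrays and -0.20, -0.12 and -0.17 on the stimulated arrays, so the groups did not overlap and replicate 3, the array with high erythroid signal, was the highest. Without that array 21 of 35 were below 0 and the median was -0.15. The part of erythroid precursors in this list was not tested.

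Genes of plasma proteins were low in signal. Ttr, the thyroxine carrier transthyretin, was at 7.94, 8.10 and 8.15 before and at 7.33, 6.58 and 6.75 after, a change of -1.18 ± 0.35. Serpina1, the inhibitor of neutrophil elastase, differed by -0.64 ± 0.28, and Apob, the protein of low-density lipoprotein, by 1.19 ± 0.49. Of 7 measured members, 4 were below 0, with a median of -0.64, and -0.02 without baseline replicate 1 and -0.15 without replicate 2. C9, the last component of the complement pore and a member of the study's wound healing list, was at 6.68, 6.33 and 6.56 before and at 4.01, 3.77 and 5.30 after, a change of -2.16 ± 0.65, with every value under its array's median.

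The large housekeeping families had small differences. Of 68 mitochondrial ribosomal protein genes, 59 were above 0, with a median of 0.23. In this list 12 members were higher without overlap, beside 7.25% of all genes. Mrpl30, a member of the list, differed by 0.45 ± 0.20. Splicing factor genes had 54 of 67 above 0 and a median of 0.21, with U2af1, which reads the end of introns, at 0.49 ± 0.26 and Snrpa, a protein of the U1 particle, at 0.67 ± 0.35. Proteasome genes had 29 of 36 above 0 and a median of 0.17, respiratory chain genes 41 of 55 and 0.13, and heat shock genes 21 of 27 and 0.17. Cox7c, a subunit of cytochrome c oxidase in the respiratory chain list, differed by 0.53 ± 0.24.

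Cytosolic ribosomal protein genes had 35 of 41 above 0 and a median of 0.11, which lay beside 0.10 for all genes, and 17 of 41 and -0.05 without baseline replicate 2. Rps15a, a protein of the small subunit, differed by 0.65 ± 0.27. Without baseline replicate 3 the median of the splicing list was 0.03, that of the proteasome list 0.04 and that of the heat shock list 0.03. Without replicate 1 the medians were 0.44, 0.29 and 0.27, and that of the mitochondrial ribosomal list was 0.36, while that of the respiratory chain list was 0.07 without replicate 2. Inside the proteasome list, the activator subunit Psme1 was at 13.97, 13.55 and 13.37 before and at 14.02, 14.12 and 13.99 after, a change of 0.41 ± 0.18. Psme4, an alternative activator, differed by -0.38 ± 0.17, while its other 2 probe sets differed by -0.14 and 0.47.

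**Figure D3:**
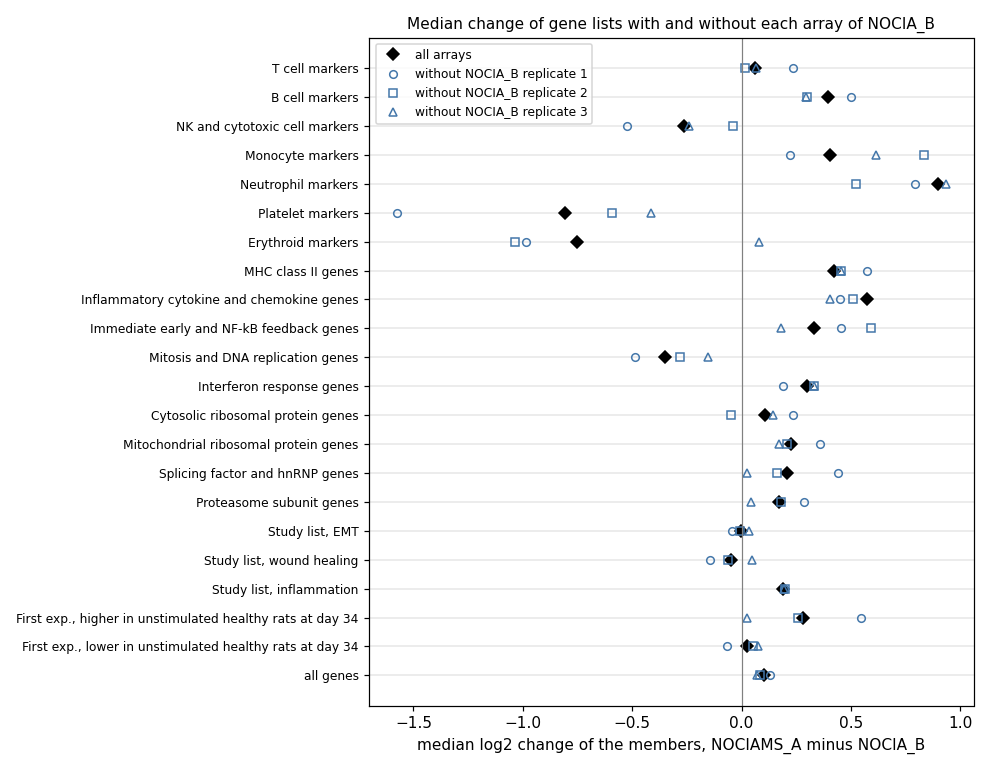
Median log2 change of the measured members of each list (horizontal axis), NOCIAMS_A minus NOCIA_B, with all arrays (black) and without each baseline array (open symbols), and all genes in the bottom row. The erythroid median passes from -0.75 to 0.08 without replicate 3, and the median of the first experiment's higher genes from 0.28 to 0.02.

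The study assembled gene lists for the healing response, and all but the inflammation list had medians below the 0.10 of all genes. The EMT list (epithelial-mesenchymal transition, the loss of epithelial ties by which cells become mobile) had 84 of 169 members above 0 and a median of 0.00. The EMT type 2 list, reduced to the form seen in wound healing, had 23 of 48 and 0.00, and early mechanotransduction 9 of 25 and -0.05, which was 0.11 without baseline replicate 3. Early healing had 30 of 55 and 0.04. At the thresholds of the study, 2 members of the EMT list were higher and 5 lower, beside 0.801% and 1.12% of all genes.

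Wound healing had 96 of 201 members above 0 and a median of -0.05. At these thresholds 1 member was higher and 5 were lower, beside 0.801% and 1.12% of all genes. It shares 12 members with the platelet markers, 5.97% of the list and 63.2% of the markers, and without platelet and erythroid markers 95 of 189 were above 0, with a median of 0.01. The median of the whole list was -0.14 without baseline replicate 1 and 0.05 without replicate 3. The inflammation list had 191 of 283 above 0 and a median of 0.19, with 6 higher and 5 lower, beside the same shares of all genes. Its median ran from 0.16 to 0.22 with any 1 of the 6 arrays left out. Response to wounding, which contains much of both, had 205 of 386 above 0 and a median of 0.03.

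Single members of these lists stood out by value. Jam3, a junction protein of endothelium and platelets, was at 6.44, 7.37 and 6.61 before and at 3.35, 3.96 and 4.61 after. The gap was wide but every value except that of baseline replicate 2 lay under its array's median, and the change was -2.83 ± 0.58 (7.11-fold lower). Arg1, the arginine-degrading enzyme of alternatively activated macrophages, was at 6.11, 7.14 and 5.77 before and at 4.21, 3.80 and 5.28 after. Its change was -1.91 ± 0.49, again with every value except that of baseline replicate 2 under its array's median. Ubash3b, a phosphatase that restrains receptor signalling, was at 11.17, 12.61 and 12.85 before and at 10.70, 11.27 and 11.20 after, in the order of the platelet genes, a change of -1.15 ± 0.38.

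Among genes of the cytoskeleton and adhesion, Actn1, the actin cross-linker alpha-actinin, was at 11.09, 11.29 and 11.94 before and at 10.60, 10.59 and 10.60 after. The stimulated arrays were almost identical, and the change was -0.85 ± 0.32, with -1.37 for its other probe set. Cald1, the actin and myosin binding protein caldesmon, was at 9.59, 11.91 and 11.999 before and at 9.53, 9.36 and 10.25 after, once more with replicate 1 among the stimulated values, a change of -1.45 ± 0.56. In the other direction, Msn, the membrane linker moesin, differed by 0.37 ± 0.16 and Icam2, an adhesion ligand of leukocyte integrins, by 0.63 ± 0.28.

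Integrin and leukocyte adhesion genes had 15 of 22 members below 0, with a median of -0.26, and -0.05 without baseline replicate 3 and -0.62 without replicate 1. Itgb3, the beta chain of the platelet fibrinogen receptor, was at 14.09, 15.18 and 15.87 before and at 14.25, 14.34 and 14.63 after, a change of -0.64 ± 0.42.

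Adenosine and glycolysis genes showed no common direction. Adk, the kinase that removes adenosine, was at 11.65, 13.06 and 13.44 before and at 11.39, 11.74 and 11.87 after, a change of -1.05 ± 0.44, and -0.90 for its other probe set. Of 24 adenosine and ATP signalling genes, 13 were above 0, with a median of 0.10, which was -0.11 without baseline replicate 3. The receptor gene Adora2a and the deaminase gene Ada, both measured by the study as protein in serum, differed by 0.14 ± 0.40 and 0.20 ± 0.31. Gjb2, the gap junction protein connexin 26, was followed by the study by PCR in cultured joint cells. It was at 10.83, 11.22 and 9.85 before and at 11.55, 10.91 and 11.64 after. Stimulated replicate 2 lay inside the baseline range, and the change was 0.74 ± 0.56. Glycolysis and hypoxia genes had 15 of 25 above 0 and a median of 0.14 (0.09 without baseline replicate 1), with Gpi, the second enzyme of glycolysis, at 0.46 ± 0.19.

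The first experiment of the study included healthy rats at day 34 without stimulation. It listed genes as higher or lower there against healthy rats before therapy, in other animals and at the unadjusted thresholds of the study. With few replicates per group in that experiment, these lists cannot be read as time alone. Of its higher genes, 411 were measured here, and 342 were above 0 in the stimulated rats, with a median of 0.28 beside 0.10 for all genes. Without baseline replicate 3, 225 of 411 were above 0 and the median was 0.02, and without replicate 1 it was 0.55. Of its lower genes, 542 were measured, and 287 were above 0, with a median of 0.03. The level of the higher genes was 0.27, -0.23 and -0.68 on the baseline arrays and 0.22, 0.03 and -0.08 on the stimulated arrays, so baseline replicate 1 had the highest value of the 6 and replicate 3 the lowest.

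The same stimulation was given to rats with collagen-induced arthritis, a joint disease raised by immunisation with collagen (before therapy CIA_B, called RA in the labels, 2 arrays, and after 34 days MS_A, called AP in the labels, 3 arrays). The change in healthy rats minus the change in arthritic rats was called for 0 of 18515 probe sets (0%, limma, lowest adjusted p 0.360), with 2423 (13.1%) at an unadjusted p under 0.05. In arthritic rats the change was above 0 for 51% of genes, with a median of 0.01. Of the 113 genes that were lower in healthy rats at the thresholds of the study, 98 were above 0 in arthritic rats, with a median of 0.95. Of the 81 higher genes, 49 were below 0 there, with a median of -0.09.

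Rasgrp3 had the lowest p of that difference among the named genes. It was at 9.34 and 10.15 on the CIA_B arrays and at 10.88, 11.71 and 11.96 on the MS_A arrays, a change of 1.77 ± 0.51, and the difference of the healthy and the arthritic change was -3.38 ± 0.68 (adjusted p = 0.360 by limma). Prtfdc1 differed by -3.44 ± 0.78 and Dennd2c, an exchange factor for Rab GTPases whose healthy groups overlapped, by -3.94 ± 0.85. For Rasgrp3 both CIA_B arrays lay below all MS_A arrays, while NOCIA_B replicates 2 and 3 lay far above the NOCIAMS_A arrays and replicate 1 close to them.

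The median change of platelet markers was -0.81 in healthy and 1.34 in arthritic rats, and 14 of the 19 were lower in the difference at an unadjusted p under 0.05 and 2-fold, beside 5.36% of all genes. Ppbp was at 10.29 and 10.92 on CIA_B and at 11.52, 12.54 and 12.53 on MS_A arrays. Erythroid markers had a median of -0.75 in healthy and 0.89 in arthritic rats, with 6 of 27 lower in the difference. Bri3, by contrast, was at 10.40 and 10.30 on CIA_B and at 10.29, 10.34 and 10.56 on MS_A arrays, all inside a narrow range, and its difference was 0.98 ± 0.27 (adjusted p = 0.360 by limma).

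Inflammatory cytokine and chemokine genes had 12 of 17 members above 0 in arthritic rats, with a median of 0.12, and the median of the difference was 0.12. The study's inflammation list had medians of 0.19 in healthy and 0.17 in arthritic rats. Of the single genes described above for healthy rats, Il1b differed by 0.12 ± 0.69 in arthritic rats, Ccl3 by -0.18 ± 0.33 and Jun by 0.00 ± 0.51, and the difference of changes was 1.77 ± 0.93 for Il1b, 1.27 ± 0.45 for Ccl3 and 1.11 ± 0.68 for Jun. Splicing genes had a median of 0.21 in healthy and -0.32 in arthritic rats, with 7 of 67 higher in the difference beside 3.69% of all genes. Monocyte markers were above 0 in both, with medians of 0.40 and 0.66.

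**Figure D4:**
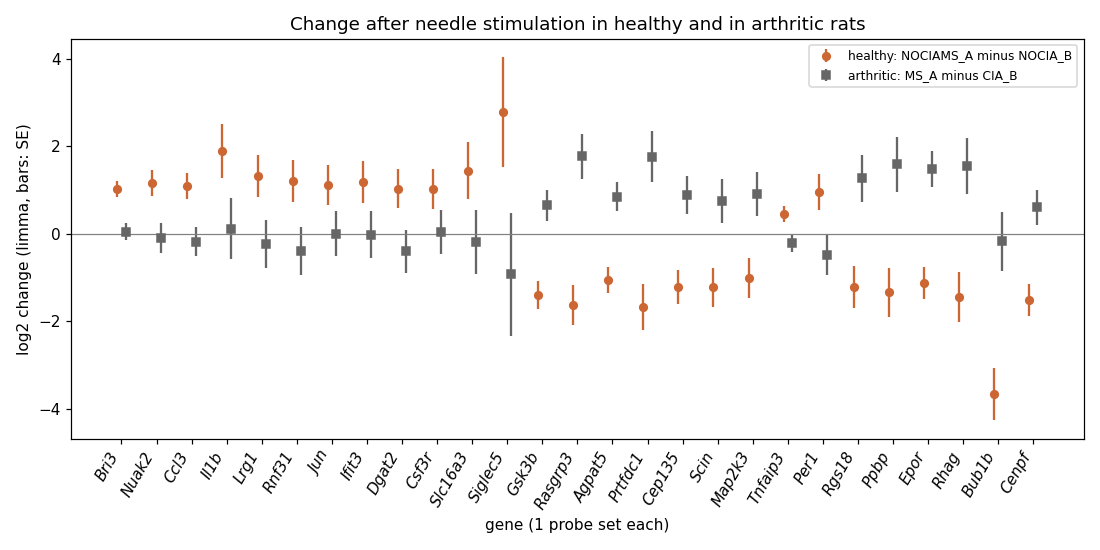
Log2 change (vertical axis) with its standard error from limma (bars) of named genes (horizontal axis) in healthy rats (orange circles) and in arthritic rats (grey squares). From Gsk3b to Map2k3 and from Rgs18 to Rhag the healthy values lie below 0 and the arthritic values above it, and no difference passed the adjustment.

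**Figure D5:**
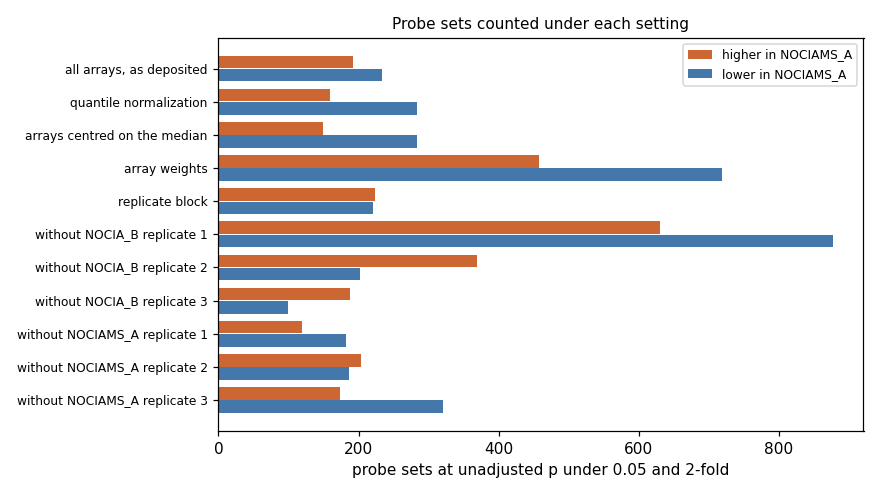
Number of probe sets at an unadjusted p under 0.05 and 2-fold (horizontal axis), higher (orange) or lower (blue) in NOCIAMS_A than in NOCIA_B, under each setting (vertical axis). The counts are largest without replicate 1 of NOCIA_B, at 631 higher and 877 lower.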

How the data were processed

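Peripheral blood mononuclear cells of female Wistar rats were profiled on Affymetrix rat230 2.0 arrays. The authors converted the scans to 1 intensity per probe set (MAS5 signal, linear) by mas5 from the affy package, the version of which is not given in the sources used here. In every deposited column the mean is 500 once 2% of the values are trimmed from either tail. Per the labels, cells were stored and extracted together at the end. The study also dropped probe sets by detection calls, which mark signals as reliable or absent. Detection calls were not used here, so counts at the study's thresholds do not follow its full rule. MAS5 subtracts mismatch signals, so values under about the array median are noisy on a log scale, and scaling to 1 trimmed mean removes any shift in total RNA.

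Probe sets brighter than the median of their array on 2 or more of the 14 arrays were tested, 18515 of 31042 without controls. A single symbol was annotated for 20826 probe sets, more than 1 for 436 and none for 9780. The log2 intensities of all 14 arrays entered 1 limma model (limma 3.58.1, R 4.3.3) with a mean for each group and empirical Bayes moderation. Calls needed a two-sided Benjamini-Hochberg adjusted p under 0.05, and the study's own thresholds (unadjusted p of 0.05, 2-fold) were counted besides. For gene lists the probe set with the highest mean stood for each of 10107 genes. The model was also run on simulated arrays with known changes. Their spread was the same in every group, so that run does not cover the unequal spread of the groups here.

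The 38 lists (29 written here, 7 of the study and 2 of its first experiment), the genes and the comparisons were chosen with earlier results of these data known, and 1 of the lists written here is not reported. Named genes are up to 12 per direction with the lowest p at the study's thresholds. Their groups had no overlap, and the higher group was above the 60th percentile. Up to 3 of the brightest members and up to 3 with the lowest p of each list were added. So were the genes the study measured in serum or cultured joint cells, and up to 4 per direction in the difference between healthy and arthritic rats. Selp was named besides, after its value was seen. Replicate numbers mark no shared animal, since rats were killed at sampling, and same-numbered arrays of the groups had correlations of deviations of 0.14, -0.10 and 0.12, so the numbers were not used as pairs. Arrays give no counts, and their number, their spread within groups and low signal limit the precision. The alternatives were quantile and median normalization, a pseudocount of 16, no filter and a filter on the 6 arrays, only the arrays compared, array weights, no moderation, moderation with a trend, a replicate block and leaving out each array.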

Additional observations from a re-analysis of the deposited data

How the results depend on the processing

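No probe set passed the adjusted p of 0.05 under any alternative run except 2: with array weights 1 passed, a probe set without a symbol, and without NOCIA_B replicate 2 there were 4, of which 3 have a symbol, Rbpms, Cfap126 and Bub1b (Rbpms and Cfap126 were chosen after their values were seen). Leaving out 1 array gave 0 to 4 such probe sets, 287 to 1508 at the study's thresholds (426 with all arrays), and 0 to 980 in the difference between healthy and arthritic rats, where 980 passed without NOCIA_B replicate 1 and 1 without CIA_B replicate 1. At the study's thresholds, no filter gave 1147 probe sets, array weights 1176 and no moderation 262, and array weights gave 1651 in the difference. With the replicate number as a block there were 0 calls, 444 probe sets at the study's thresholds and 0 in the difference, so that the block changed no call. Of 1352 values of 85 named genes under the alternatives, 3 had the other sign: Fos and Adora2a were at -0.15 and -0.13 with array weights, and Adora2a ran from -0.11 to 0.32 with 1 array left out. Of 456 values of the 38 list medians, 28 had the other sign, among them the erythroid markers without NOCIA_B replicate 3 and otherwise lists whose median was at most 0.11 in size. The spread of 3 arrays, and low signal for genes such as Bub1b, Jam3 and Gata2, limit what can be read.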
